A study of Homo sapiens with 8 samples.

Results

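Regions of open chromatin that were still called 1 day after SMARCB1 came back, and then left the peak lists one list after the other, were followed in G401 cells by ATAC-seq. Members were the merged regions with peaks on days 0 and 1 only, which numbered 2416, and those with peaks on days 0, 1 and 3 only, which numbered 3540. Together these 5956 regions were 4.08% of the 146099 regions obtained by joining overlapping peaks of the 4 deposited lists. They were 7.58% of the 78579 regions that had a peak on day 0 (95% exact Clopper-Pearson interval 7.40 to 7.77, which treats regions as independent draws). The presence and absence of called peaks chose the members, so all values from the same lists are given as descriptions.

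G401 cells are an established line derived from a kidney rhabdoid tumour that has lost SMARCB1, and all groups were the same stable derivative with a doxycycline-inducible SMARCB1, kept in Tet-free serum. The 4 groups of 2 replicates were day 0, labelled SMARCB1 -/-, and days 1, 3 and 7 of doxycycline at 1 µg/ml, labelled SMARCB1 +/+. The labels do not say whether that derivative is 1 clone. The deposited values are 1 peak list a day, so no value below has a replicate error and no test between days was possible.

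SMARCB1 is a core subunit of SWI/SNF, an ATP-driven complex that slides and evicts nucleosomes and so opens DNA to transcription factors. Rhabdoid tumours are defined by its loss, and in such cells the complex is known to be reduced at distal enhancers, where AP-1 factors recruit it. In ATAC-seq a transposase inserts adapters into nucleosome-free DNA, and a peak marks a stretch with more insertions than its surroundings.

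Depth was similar across the lists, with a genome-wide background of 6.34, 6.04, 6.73 and 6.10 reads per position on days 0, 1, 3 and 7. Summit heights are given below as recovered reads, as scaled summits (reads divided by that genome-wide background), or as fold, the authors' ratio of summit over local background within a list. The list that names no day was taken as day 0 by elimination. The weakest summit in any list held 16 reads, and the narrowest peak was 200 bp in each list. Genes and DNA sequence at these hg19 positions were not analysed here, since the gene table at hand belongs to GRCh38.

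With the lists as deposited, leaving them in order was the most frequent course among regions with a day 0 peak and 1 other peak. It was also the most frequent among those with a day 0 peak and 2 other peaks. Of regions with peaks on day 0 and 1 other day, 2416 had the other peak on day 1, 1461 on day 3 and 1176 on day 7. Of regions with peaks on day 0 and 2 other days, 3540 lacked day 7, 1658 lacked day 3 and 1315 lacked day 1. Regions seen on day 0 alone numbered 6227, and 60786 had a peak on every day. These counts are what the choice of members rests on, and the lists differ in length, with 80744, 109876, 117606 and 103182 peaks on days 0, 1, 3 and 7. With only the 80744 strongest peaks of each list the second order turns round: 2257 regions then lacked day 7 alone, 2928 lacked day 3 alone and 1274 lacked day 1 alone. The first order changed too, with 3262, 1098 and 2351 regions whose other peak was on day 1, 3 or 7.

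**Figure D1:**
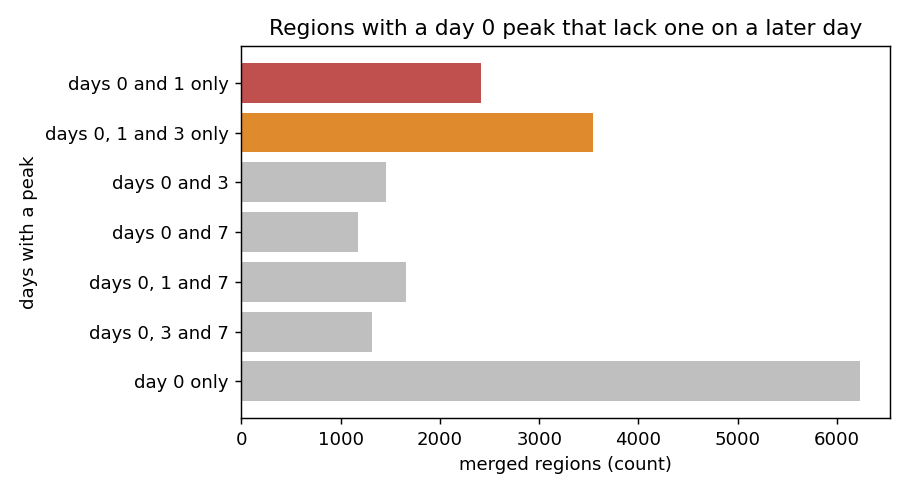
Bars give the number of merged regions (x axis) for each set of days with a peak (y axis), for regions with a day 0 peak that lack one on a later day; the 60786 regions called on every day are left out. Members are in colour, with 2416 on days 0 and 1 only and 3540 on days 0, 1 and 3 only, against 1176 to 1658 for the 4 grey orders in which a peak is skipped and 6227 on day 0 alone.

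Members were small, weak sites. On day 0 the median summit held 32 reads in regions of days 0 and 1 only and 33 reads in regions of days 0, 1 and 3 only, against 70 reads in regions open on every day. Their median day 0 folds were 2.94 and 3.07, against 4.49 in regions open on every day, and regions open on day 0 alone had 2.87. The day 0 peaks were narrow, with medians of 277 and 294 bp, against 549 bp in regions open on every day. Small size was not particular to members. Regions of day 0 alone had day 0 medians of 28 reads and 250 bp. Regions with peaks on days 0 and 7 that were missing on day 1, day 3 or both had 33 reads, a fold of 2.97 and 290 bp. Member peaks made up 7.44% of the day 0 list but 3.87% of the bases it covers, 1.88 Mb of 48.5 Mb. A larger share of members than of regions open on every day stood on the genome-wide background on day 0, 23.6% and 28.4% for the 2 kinds against 17.1%.

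A few members were stronger. A day 0 fold of at least 4 was reached by 145 of 2416 regions of days 0 and 1 only (6.0%) and by 481 of 3540 regions of days 0, 1 and 3 only (13.6%), against 35726 of 60786 regions open on every day (58.8%). A day 0 fold of at least 6 was reached by 0 and 12 members. The share of day 0 regions that were members was 15.4% (14.7 to 16.2) at a day 0 fold under 2.5, 12.1% (11.5 to 12.7) from 3 to 3.5, 4.48% (4.11 to 4.87) from 4 to 5 and 0.0725% (0.0375 to 0.127) at 6 or more. Membership thus thinned out with strength, and at a fold of 6 or more 99.9% of day 0 regions stayed on every list. Other kinds of region thinned out too. Regions of day 0 alone made up 15.9% under a fold of 2.5 and 0% at 6 or more. Regions with peaks on days 0 and 7 that went missing in between made up 11.2% and 0.0121%.

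Each member was in most cases a single peak that kept its place. Only 18 regions of days 0 and 1 only (0.745%) and 112 of days 0, 1 and 3 only (3.16%) had more than 1 peak on any day. The summit moved by a median of 60 bp between day 0 and the last day with a peak in both kinds, against 32 bp between days 0 and 3 in regions open on every day. It moved by more than 200 bp in 7.12% and 8.25% of members, against 5.71%. In 35 regions of days 0, 1 and 3 only, the highest day 0 and day 1 peaks did not overlap each other and another peak linked them.

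Heights on the called days did not show members as closing stepwise in the median. Since a called peak on each of these days was part of the choice and members lie near the calling floor, level heights there are largely fixed by it. In regions of days 0 and 1 only the median scaled summit was 5.13 on day 1, against 5.04 on day 0, and the median fold was 2.94 on each of those days. Peak width was likewise level, with a median of 272 bp on day 1 against 277 bp on day 0. In regions of days 0, 1 and 3 only the median scaled summits were 5.20, 5.63 and 5.06 on days 0, 1 and 3, the median folds 3.07, 3.14 and 2.98, and the median widths 294, 322 and 305 bp. Their highest point by each of these measures was day 1, and by unscaled reads, with medians of 33, 34 and 34, days 1 and 3 were level. Day 1 was also highest for regions open on every day, whose median scaled summits were 11.0, 12.7, 11.6 and 11.3 on days 0, 1, 3 and 7.

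**Figure D2:**
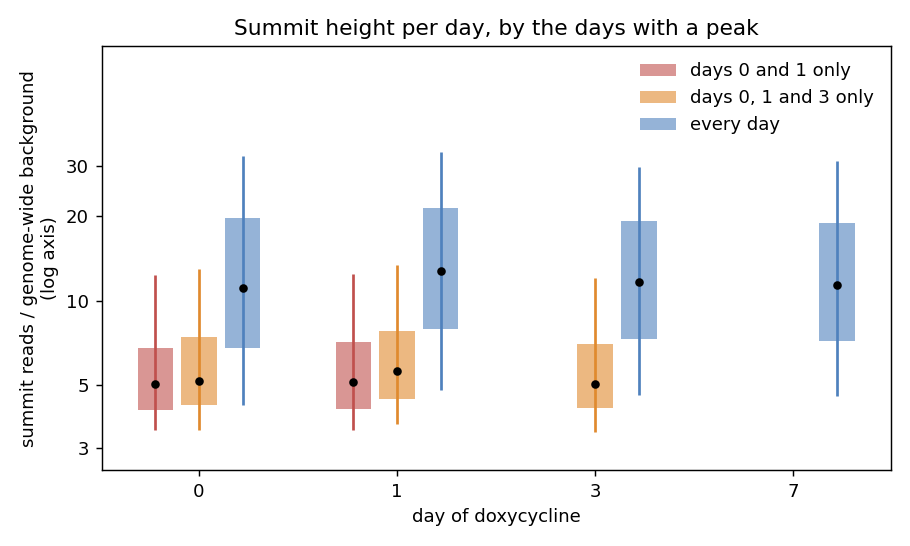
Scaled summit height (summit reads over the genome-wide background, log axis) against the day of doxycycline; dots are medians over regions, boxes the middle 50% of regions, and lines the 5th to 95th percentile, with no replicate error. Members lie near 5 on each day they were called, against medians of 11.0 to 12.7 for regions open on every day.

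Region by region, the steps were small. The median log2 ratio of scaled summits, day 1 over day 0, was 0.02 in regions of days 0 and 1 only (SD over regions 0.25) and 0.07 in regions of days 0, 1 and 3 only (SD 0.29), against 0.08 in regions open on every day (SD 0.37). Day 3 over day 0 gave a median of -0.08 both in regions of days 0, 1 and 3 only and in regions open on every day. Day 3 over day 1 gave -0.15 in each. These 2 shared values are the ratios of the genome-wide backgrounds, and they show no shared movement. The 0.07 for day 1 over day 0 in regions of days 0, 1 and 3 only is such a ratio too. In each of these cases the median region had the same number of summit reads on both days compared. The sign of the day 1 median in regions of days 0 and 1 only depends on the scaling: it was -0.053 with unscaled reads and -0.19 when the median summit of regions open on every day was set equal between days.

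Summits at least 1.5-fold lower on day 1 than on day 0 were found in 16 regions of days 0 and 1 only (0.662%) and in 30 regions of days 0, 1 and 3 only (0.847%). Over all 68400 regions with peaks on both days the share was 0.496%. On day 3 relative to day 0, 140 regions of days 0, 1 and 3 only (3.95%) were at least 1.5-fold lower, against 1.89% of all 67102 regions with both peaks. On day 3 relative to day 1, 153 of them (4.32%) were at least 1.5-fold lower and 18 (0.508%) at least 1.5-fold higher, against 1.86% and 4.15% of all 91580 regions with both peaks, a set that also holds regions with no day 0 peak. In regions open on every day these shares were 1.88% and 0.466%. Increases of at least 1.5-fold since day 0 made up smaller shares of members than of all regions. On day 1 they numbered 38 (1.57%) and 177 (5.0%) in the 2 kinds of member, against 8.6% of all regions, and on day 3 they numbered 91 (2.57%) in regions of days 0, 1 and 3 only, against 7.78%. Since a called peak on each of those days was part of the choice of members, nothing more is read from these shares.

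A fall at each step was the course of a minority. Among the 3540 regions of days 0, 1 and 3 only, 843 (23.8%) had scaled summits that were lower on day 1 than on day 0 and lower again on day 3, against 22.4% of regions open on every day. Another 394 (11.1%) were higher at each step, against 11.8%. The highest of the 3 days was day 1 in 1693 regions (47.8%), day 0 in 1187 (33.5%) and day 3 in 660 (18.6%). In regions open on every day these shares were 57.1%, 27.5% and 15.3%. By fold, 680 (19.2%) fell at each step, against 17.5% of regions open on every day, and by width 513 (14.5%) did, against 13.5%.

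Regions of the same day 0 height were also set side by side. The groups were formed by calls on days 1, 3 and 7 of the same lists, so a lower height in regions that go missing is in part built into the choice, and the values are a description. This comparison took only regions on the genome-wide background on day 0, so that equal reads there also mean an equal fold. Among those with 30 to under 35 day 0 reads, the median log2 ratio of day 1 over day 0 was -0.22 in 61 regions of days 0 and 1 only, -0.13 in 184 regions of days 0, 1 and 3 only and 0.15 in 1736 regions open on every day. Median day 1 summits were 25, 28 and 34 reads in these groups, from day 0 medians of 31, 32 and 32 reads.

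At 25 to under 30 day 0 reads the median log2 ratios were -0.05, 0.02 and 0.28 in 242, 376 and 1751 regions. At 20 to under 25 reads they were 0.13, 0.20 and 0.45 in 244, 341 and 1057 regions. At 35 to under 40 reads the values were -0.15 in 67 regions of days 0, 1 and 3 only and 0.11 in 1537 regions open on every day, and only 9 regions of days 0 and 1 only were that high. On day 3 regions of days 0, 1 and 3 only again stood below those open on every day, with medians of -0.23 against 0.05 at 30 to under 35 reads and -0.30 against -0.01 at 35 to under 40. Under 40 reads, the middle 50% overlapped between members and regions open on every day in each class of 20 or more member regions. It did not for the 9 regions of days 0 and 1 only with 35 to under 40 reads, at -0.46 to -0.29 against -0.10 to 0.29. At 40 to under 50 reads it did not for the 26 regions of days 0, 1 and 3 only. They stood at -0.54 to -0.14 on day 1, against -0.11 to 0.24 in regions open on every day. On day 3 they stood at -0.75 to -0.27, against -0.25 to 0.11.

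**Figure D3:**
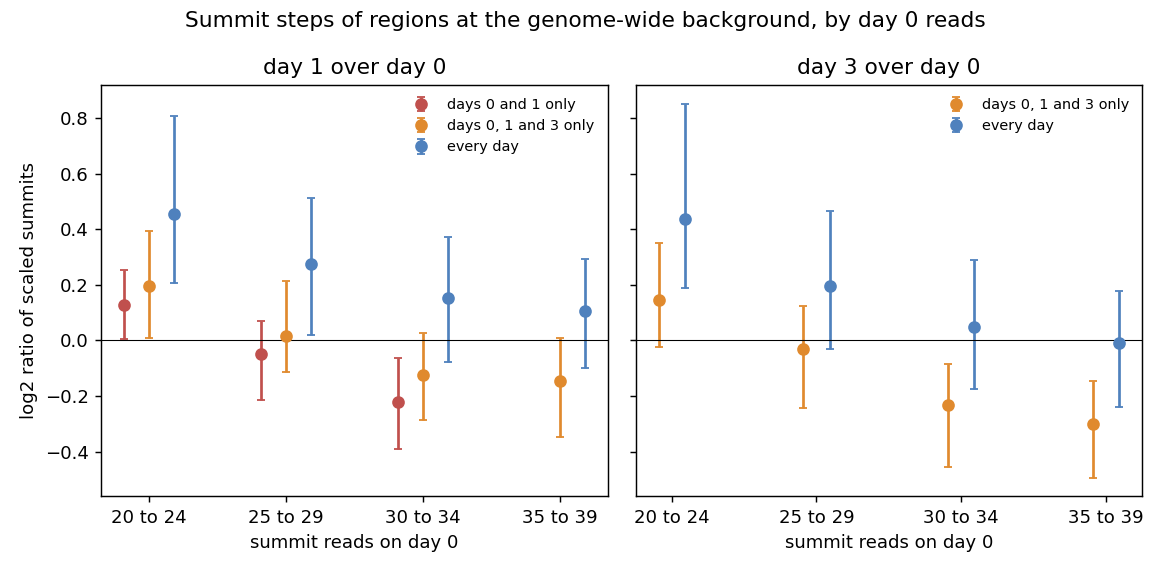
Log2 ratio of scaled summits of day 1 (left) and day 3 (right) over day 0 against the day 0 summit reads, for regions on the genome-wide background on day 0; dots are medians and bars the middle 50% of regions, classes of under 20 regions and the class of 40 to under 50 reads are not drawn. At 30 to under 35 reads the day 1 medians are -0.22 for days 0 and 1 only, -0.13 for days 0, 1 and 3 only and 0.15 for every day.

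Of the 64326 regions with peaks on days 0, 1 and 3, the 3540 without a day 7 peak were 5.50% (5.33 to 5.68). That share was 17.4% (16.3 to 18.5) where the day 3 fold was under 2.5, 11.8% (11.1 to 12.6) from 3 to 3.5, 3.08% (2.78 to 3.41) from 4 to 5 and 0.0175% (0.00360 to 0.0510), or 3 of 17184, at 6 or more. It was 11.7% (9.93 to 13.7) where the day 3 summit was at least 1.5-fold below day 0 and 1.76% (1.42 to 2.16) where it was at least 1.5-fold above. By earlier course the shares were closer: 5.83% (5.45 to 6.23) of regions that fell at each step and 5.20% (4.71 to 5.72) of those that rose at each step lacked a day 7 peak. At a day 3 fold of 3 to 3.5 these shares were 10.8% (9.41 to 12.3) and 12.7% (10.4 to 15.4), with intervals that overlap.

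**Figure D4:**
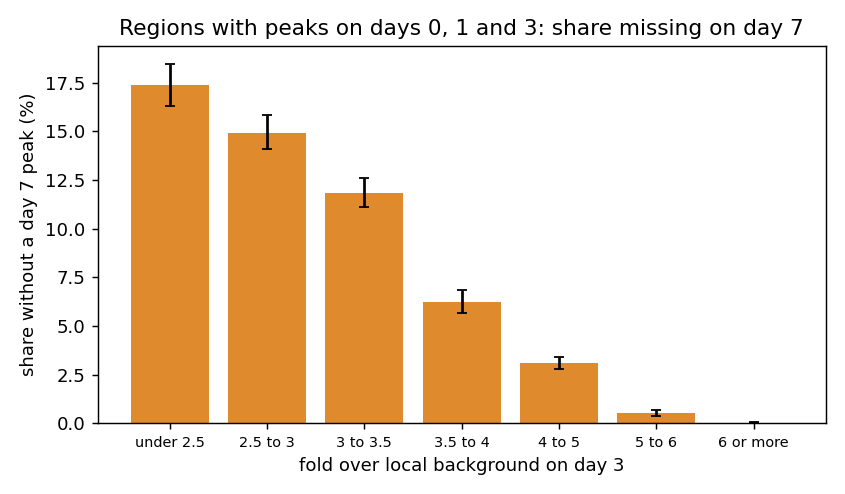
Share of regions without a day 7 peak (%) among the 64326 with peaks on days 0, 1 and 3, against the day 3 fold over local background; bars are shares, lines 95% exact Clopper-Pearson intervals over regions. The share runs from 17.4% under a fold of 2.5 to 0.0175% at 6 or more.

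Absence from a list is a limit and not a count of 0. For each member the fewest reads were found that would reach the smallest -log10 p of the list in which it is missing, at the local background of its last called day scaled for depth. For regions of days 0 and 1 only, the highest summit under that p was 23 reads on day 3 in the median region, or 0.685 of the scaled day 1 summit. For regions of days 0, 1 and 3 only, the day 7 limit was 21 reads in the median region, or 0.718 of the day 3 summit. A summit at this limit would be at least 1.5-fold below the last one in 1046 (43.3%) and 1165 (32.9%) members.

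A peak must also be wide enough to be listed, so a summit above that limit can be missing too. Taking the median -log10 p of the narrowest peaks (up to 220 bp) of the missing day as the limit instead, the limit stood at 0.899 and 0.926 of the last summit in the median member. It was no lower than the last summit in 347 regions of days 0 and 1 only (14.4%) and 944 regions of days 0, 1 and 3 only (26.7%). For such members absence from the list does not by itself show a lower summit. A summit at this limit would be at least 1.5-fold below the last one in 63 (2.61%) and 153 (4.32%) members. With this limit the interval of limit over last summit lay below 1 in 13 (0.538%) and 37 (1.05%).

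The background near members could be followed into the missing day for some of them, where its medians were close to level. Where another peak of the missing day had its summit within 2000 bp of a member's, its local background stood in for that of the member. This was so for 629 regions of days 0 and 1 only, where the background on day 3 over that on day 1 had a median log2 of -0.09, and for 774 regions of days 0, 1 and 3 only, with -0.03 for day 7 over day 3. It was at least 1.5-fold higher in 5 and 8 of these regions. On the last called day itself the same stand-in had a median log2 of 0.00 and an SD over regions of 0.13 and 0.14 relative to the member's own background.

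Most members had no peak of the missing day close by. A peak of day 3 lay within 500 bp of 200 regions of days 0 and 1 only (8.28%), and a peak of day 7 within 500 bp of 287 regions of days 0, 1 and 3 only (8.11%). The median distances to such a peak were 3955 and 4933 bp. Between 185 and 196 peak numbers are missing from each list, so some called peaks may have been taken out before deposit. Only 3 regions of days 0 and 1 only lay between peaks that flank such a gap on day 3, and 7 regions of days 0, 1 and 3 only did on day 7.

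The 10 regions of days 0, 1 and 3 only with the highest lowest fold had similar summits on the 3 days, within a wide counting error. Picking by the lowest fold leaves out regions that were low on any called day. Level summits are therefore in part built into that choice. The first of them, chr2:156113253-156113722, had 47, 43 and 48 summit reads on days 0, 1 and 3 and folds of 6.54, 6.25 and 6.34. Its day 3 summit was 0.963 of day 0 (95% exact conditional binomial interval 0.631 to 1.47, counting error only). On day 7 it was not listed. The first limit there was 16 reads, or 0.367 of the scaled day 3 summit with an interval reaching to 0.659, and the second was 22 reads. The nearest day 7 peak was 5554 bp away.

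Close behind came chr17:49662884-49663276 with 38, 41 and 40 reads on days 0, 1 and 3, and chr20:13305607-13306037 with 41, 39 and 40. The region chr10:125625944-125626362 had 37, 36 and 47 reads and was 1.2 times day 0 on day 3 (0.762 to 1.90). The other 6 lay on chromosomes 4, 9, 18, 1, 16 and 2, with 35 to 45 reads on each of the 3 days. The one on chromosome 16, at 33618790 to 33619417, lies between peaks that flank a missing number in the day 7 list, so its absence there is less certain. Over all 10, the day 3 summit was 0.897 to 1.2 of day 0, and each interval holds 1.

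Of the 5 largest falls before the peak went missing, 3 ran stepwise. At chr19:50249418-50249833 the summit held 69, 45 and 31 reads on days 0, 1 and 3, so day 3 was at 0.424 of day 0 (0.268 to 0.656). At chr17:2878718-2879118 the summit held 49, 35 and 23 reads, with folds of 6.81, 5.11 and 3.11 and a background that stayed at the genome-wide value, so day 3 was at 0.443 (0.257 to 0.741). At chr11:64397438-64397913 it held 65, 44 and 33 reads, or 0.479 on day 3 (0.305 to 0.739). In these 3 the summit was lower on day 3 by more than the counting error, and lower at each step. On chromosomes 19 and 11 the local background, scaled for depth, was also lower on day 3, at 0.771 and 0.820 of day 0. By fold these 2 falls were milder, to 0.551 and 0.586 of day 0. The other 2, chr17:19764071-19764529 with 49, 23 and 26 reads and chr6:26673493-26673997 with 43, 21 and 23, had made their fall by day 1. At the former the scaled background on day 3 was 0.762 of day 0, and the fold was 0.653 of day 0. The 5 were picked as extremes among 3540, which exaggerates such falls, and the intervals do not allow for that.

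The 5 largest rises went the other way and then left the day 7 list. They too were picked as extremes among 3540, which exaggerates such rises, and the intervals do not allow for that. The highest was chr7:64725414-64726081, with 25, 63 and 90 summit reads on days 0, 1 and 3, folds of 3.09, 5.81 and 6.74, and a day 3 summit 3.40 times that of day 0 (2.16 to 5.52). Its day 7 limit was 24 reads, or 0.294 of the scaled day 3 summit, with an interval reaching to 0.465, and 31 reads by the second limit. A region at chr7:83081433-83082079 had 25, 59 and 60 reads, a day 3 summit 2.26 times that of day 0 (1.4 to 3.77) and a day 7 limit of 22 reads. Both were higher on days 1 and 3 than on day 0, in reads and in fold. Their local background rose too, from 7.42 reads on day 0 to 12.5 on day 3 at the first. At the second it rose from 6.38 to 10.7 reads. By fold, day 3 was 2.18 and 1.48 times day 0.

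In the other 3 the local background rose by at least as large a factor as the summit. At chr2:46872837-46873160 the summit held 32, 51 and 84 reads, while the local background was 11.2, 18.6 and 30.9 reads, and the fold was 2.70, 2.65 and 2.66. At chr12:46268792-46269399 the summit held 35, 78 and 84 reads over a background of 14.8, 41.9 and 37.3. At chr17:15551734-15552222 the summit held 29, 50 and 69 reads over 10.9, 25.4 and 30.1. By fold these 3 had not risen, with day 3 at 0.986, 0.975 and 0.894 of day 0.

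**Figure D5:**
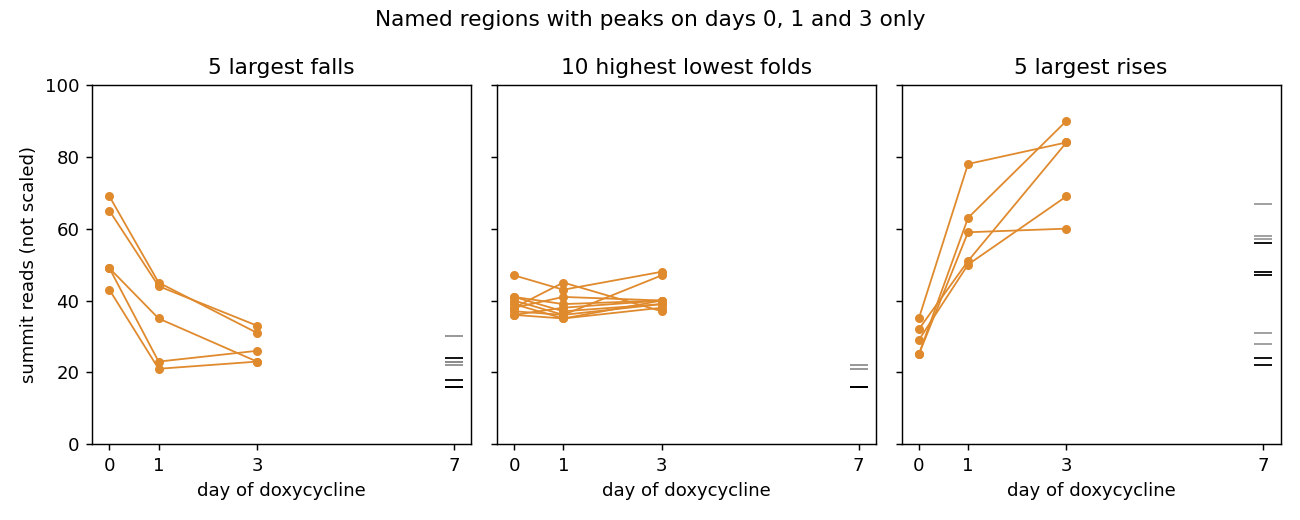
Summit reads (not scaled for depth) against the day of doxycycline for 20 regions with peaks on days 0, 1 and 3 only, in 3 panels: the 5 largest falls, the 10 with the highest lowest fold and the 5 largest rises. Dashes at day 7 are the 2 limits for a missing summit, black from the smallest -log10 p of the day 7 list and grey from the median -log10 p of its narrowest peaks, and neither is a strict upper bound; the first panel lies between 23 and 33 reads on day 3, against 43 to 69 on day 0, and the middle one stays between 35 and 48.

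The members with the highest day 0 fold were looked up after their values were seen. At chr7:149015066-149015625 the summit held 57, 49 and 33 reads on days 0, 1 and 3, so day 3 was at 0.546 of day 0 (0.344 to 0.853), and the background there was near the genome-wide value on each day. At chr16:88281139-88281722 the summits were 59, 51 and 52 reads, while the local background was 7.10, 14 and 19.6 reads and the fold 7.41, 3.47 and 2.57. The first was a fall of the summit, and in the second the fold fell with a summit at 0.831 of day 0 (0.561 to 1.23). Picking by a high day 0 fold by itself favours lower later values, and the intervals do not allow for that. In all, 23 regions of days 0, 1 and 3 only and 2 of days 0 and 1 only reached a fold of 6 on some day. The 2 regions of days 0 and 1 only, chr17:67502608-67503088 and chr20:10938086-10938446, each held 42 reads on day 1 and 26 on day 0, a ratio of 1.70 (1.02 to 2.88). They were picked for a fold of 6, which both reached on day 1 and not on day 0. A rise is therefore in part built into that choice.

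Regions of days 0 and 1 only were weaker throughout, and the 10 strongest by lowest fold had day 1 summits of 0.750 to 1.12 times day 0. At chr16:67431-67823 the summit held 31 reads on day 1 and 33 on day 0, and at chr3:126286820-126287247 it held 31 on day 1 and 34 on day 0. At chr7:33876423-33876843 it held 34 reads on day 1 and 32 on day 0, a ratio of 1.12 (0.668 to 1.87). The lowest ratios were at chrX:19551279-19551632, with 30 reads on day 1 and 42 on day 0, or 0.750 (0.453 to 1.23), and at chr6:134477872-134478306, with 30 and 40 reads, or 0.787 (0.473 to 1.30). None of the 10 intervals leaves out 1, but picking by the lowest fold by itself favours level summits. The other 5 lay on chromosomes 2 (2 regions), 10, 12 and 17, with 30 to 36 reads on day 1 and 31 to 36 on day 0. On day 3 these 10 had a limit of 16 to 19 reads, or 0.423 to 0.479 of the scaled day 1 summit, and by the second limit 23 to 26 reads.

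The 5 largest falls among regions of days 0 and 1 only were to 0.535 to 0.609 of day 0. At chr3:27448628-27449169 the summit held 27 reads on day 1, against 53 on day 0 (0.535, 0.323 to 0.865), and at chr17:56406747-56407145 it held 30, against 54 (0.583, 0.360 to 0.928). The other 3 were at chr3:174067085-174067897 with 23 reads on day 1 and 42 on day 0, chr12:82021324-82021675 with 20 and 36, and chr17:38527545-38527962 with 29 and 50. Of the 5 intervals, that on chromosome 12 (0.320 to 1.03) holds 1. The 5 were picked as extremes among 2416, which exaggerates such falls, and the intervals do not allow for that. Over all 2416, the interval lay below 1 in 6 regions (0.248%) and above 1 in 20 (0.828%). Over all 68400 regions with peaks on days 0 and 1, these shares were 0.433% and 9.13%. The local background was also lower on day 1 in 4 of these 5, with 10.9 reads on day 1 against 14.1 on day 0 at the first, and the one on chromosome 12 stood on the genome-wide background on both days.

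The 5 largest rises on day 1 were 1.79 to 1.90 times day 0. They too were picked as extremes among 2416, which exaggerates such rises, and the intervals do not allow for that. At chr8:1324352-1324601 the summit held 38 reads on day 1, against 21 on day 0 (1.90, 1.09 to 3.41), while the background was 14.1 on day 1 against 6.42 on day 0 and the fold was 2.59 against 2.96. At chr2:175083481-175083999 it held 37 reads on day 1, against 21 on day 0, and here the fold was 4.97 against 2.53. The other 3, on chromosomes 15, 19 and 3, held 47, 33 and 41 reads on day 1, against 27, 19 and 24 on day 0. At these 3 the local background was also higher on day 1, at 15.6, 10.9 and 15.2 reads, against 9.82, 6.34 and 6.34 on day 0.

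The limit between members and other regions runs through weak peaks. The weakest of days 0 and 1 only by -log10 q was chr22:41310212-41310617, with 19 reads on day 1 and 24 on day 0, and the next was chr14:64984516-64984909, with 19 on day 1 and 25 on day 0. Another weak member, chr9:33042572-33042926, had high summits of 69 reads on day 1 and 72 on day 0 over backgrounds of 42.3 and 38.2, and a day 3 peak lay 66 bp away. The weakest of days 0, 1 and 3 only was chr6:158642489-158642963, with 34, 31 and 24 reads on days 0, 1 and 3. Its day 3 peak, with a fold of 2.20, is all that sets it apart from the regions of days 0 and 1 only. Just outside the members is chr20:17940325-17940759, called on every day with 25 reads and a fold of 2.20 on day 7 and 43 reads on day 0.

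Position was not used in choosing the members. They lay within reach of a region open on every day more often than the whole set of regions not open on every day: 58.9% (56.9 to 60.9) of regions of days 0 and 1 only and 59.2% (57.5 to 60.8) of regions of days 0, 1 and 3 only were within 10 kb of one, against 49.2% of all 85313 regions not open on every day. The median distances were 7691 and 7542 bp, against 10253 bp. Regions of day 0 alone (56.6%) and regions with peaks on days 0 and 7 that were missing on day 1, day 3 or both (60.2%) were close to the members in this. For regions gained on all 3 induced days the shares were lower, with 21.3% and 19.3% within 10 kb of a gained region, against 40.3% of all regions not open on every day, a set that holds the gained regions themselves. Regions of day 0 alone (23.3%) and those that went missing and came back (20.8%) had similar shares.

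The nearest regions open on every day, where within 10 kb of a member, had medians close to those of all such regions. For the 1398 such neighbours of regions of days 0 and 1 only, the median log2 ratio of scaled summits, day 3 over day 0, was -0.07 (middle 50% of regions -0.20 to 0.15), against -0.08 in all 60786. For the 2046 neighbours of regions of days 0, 1 and 3 only, day 7 over day 0 gave -0.05 (-0.18 to 0.11), against -0.04. At least 1.5-fold lower summits were found in 2.15% of the first set on day 3, against 1.74% in all, and in 1.76% of the second on day 7, against 1.41%.

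Members were scattered over the genome. Joining members no more than 10 kb apart gave 5643 groups, of which 5344 held 1 member, 285 held 2 and 14 held 3. At chr11:123169812-123175997 3 regions of days 0 and 1 only lay within 6.19 kb, and at chr14:77458659-77467106 3 regions of days 0, 1 and 3 only within 8.45 kb. In the span chr1:8706835-8721121, 3, 3, 2 and 0 peaks were called on days 0, 1, 3 and 7, and all peaks of the span belonged to its 3 members, so these counts restate the choice. The span chr6:104953818-104966108 had the same counts. These groups were picked after their counts were seen.

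Among the chromosomes, the share of day 0 regions that were members ran from 6.51% (5.78 to 7.30) on chromosome 6 to 8.90% (7.08 to 11.0) on chromosome 21, with 0 of 94 on chromosome Y, which allows up to 3.85%. The interval of chromosome 6 lies below the overall 7.58%, and that of chromosome 1, at 6.90% (6.34 to 7.48), does too. All other intervals but that of Y hold 7.58%. No allowance was made for the number of chromosomes compared, and some intervals can miss 7.58% by sampling alone. Regions of day 0 alone also had lower shares on chromosomes 6 and 1. They made up 6.96% and 7.53% of day 0 regions there, against 7.92% over all chromosomes.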

How the data were processed

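ATAC-seq was done on 8 samples of G401 cells, 2 replicates on each of days 0, 1, 3 and 7, grouped by their titles. The sources used here are the labels and 1 deposited file of 4 peak lists in narrowPeak layout, with 411408 peaks. The submitters' processing notes name Bowtie2, deepTools, MACS2 version 2.1.1.20160309 and hg19. The sources used here do not state alignment filters, any transposase offset or a pooling of replicates. Of the deposited columns, the fold is the authors' ratio of summit over local background, and it was compared between days only where named as fold. The deposited score is 10 times the -log10 q in nearly all peaks and was not used further. The deposited -log10 p and -log10 q come from the authors' peak caller, as does the summit offset in bp.

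Summit reads were recovered from fold and -log10 p, with fold modelled as (reads + 1) / (background + 1) and p as the upper Poisson tail. A whole number fitted 411408 peaks within 0.005 in -log10 p. The background shared by the most peaks of a list is its genome-wide background. Peaks were joined where they overlap by at least 1 bp, and each day is represented by its highest summit. The recovery and the joining were checked on simulated data. Intervals of shares are exact Clopper-Pearson intervals, and those of summit ratios exact conditional binomial intervals. They cover counting error only, without the spread between replicates, and PCR copies would make the latter too narrow. Named regions are, for each kind of member, the 10 with the highest lowest fold, the 5 largest falls and 5 largest rises of the scaled summit from day 0 to the last called day (at least 30 reads on the higher side) and the 3 weakest by -log10 q. The members, lists and rules were chosen with earlier results of these data known. The limit from the narrowest peaks and the background of neighbouring peaks were alternatives chosen after seeing the data. A test per region across samples was not possible with peak lists. Python 3.11.15, NumPy 2.4.6, SciPy 1.17.1, pandas 2.3.3 and matplotlib 3.10.9 were used. Coordinates are 1-based hg19.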

Additional observations from a re-analysis of the deposited data

How the results depend on the processing

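Membership rests on the length of the lists. With the same number of peaks from each list, the strongest by -log10 q, regions of days 0, 1 and 3 only numbered 2257, of which 763 of the original 3540 were still members of that kind. Regions of days 0 and 1 only then numbered 3262, and 696 of the original 2416 were still among them. With a day 0 fold of at least 4 the counts were 145 and 481. With a -log10 q of at least 5 in every list they were 2045 and 2884, with 1209 and 1927 of the original members kept. The other counts, from joining, matching, chromosomes or leaving out members with a peak of a missing day within 500 bp, an alternative chosen after seeing the data, were within 1.5 times the reported ones.

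The steps between days depend on scaling, so no direction is drawn from their medians. For regions of days 0 and 1 only, the median log2 of day 1 over day 0 was 0.02 as reported, -0.0013 by the authors' fold, -0.19 when the median summit of regions open on every day was set equal between days (a shift of 0.21, larger than the median step of those regions, 0.08) and -0.053 with no scaling. For regions of days 0, 1 and 3 only, day 3 over day 0 was -0.08 as reported, -0.017 by fold, -0.16 with that median set equal (a shift of 0.07, opposite in sign to their median step of -0.08) and 0.00 with no scaling. Measured between summits, the median distances to a region open on every day were 8413 and 8228 bp. The medians of fold, reads and width kept within their 95% intervals with the widest peak of a day or a -log10 q of at least 3.

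Leaving out replicates could not be run. No paired analysis was possible because the lists hold no value per sample. Summits of about 30 reads carry wide counting error, and most single members cannot be shown to fall.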
